A study of Mus musculus with 28 samples.

Results

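Non-muscle myosin II heavy chains are the motor subunits of the actin-based contractile apparatus of cells other than striated muscle. Their genes, Myh9, Myh10 and Myh14, were picked by symbol, and all 3 were found among the 23038 genes in the expression tables of the series. Messenger RNA was measured by RNA-seq in mice homozygous for a knock-in that gives the endogenous NOVA1 protein the human amino acid at 1 position (Nova1 hu/hu), and in wild-type Nova1 wt/wt mice. Both genotypes were on the C57BL/6J background, and the knock-in is constitutive, so that every cell carries it. The study used both sexes, which were not separated here. Midbrain was taken at E18.5 from 6 hu/hu and 6 wt/wt mice, midbrain at P21 from 4 and 4, and cortex at P21 from 4 and 4, which makes 28 libraries of polyadenylated RNA.

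Each non-muscle myosin II molecule pairs its heavy chains with essential and regulatory light chains, and phosphorylation of the regulatory light chain by the ROCK kinases or myosin light chain kinase turns the motor on. Myh9 encodes the IIA heavy chain, which is widespread and prominent in vessels, connective tissue and blood cells. Myh10 encodes IIB, the predominant form in neurons and the embryonic brain, where it acts in neuronal migration and growth cones. Myh14 encodes IIC, and variants of the gene are linked to hearing loss. Counts per gene do not resolve the alternative exons of Myh10 and Myh14, so the values below describe gene levels only.

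In GRCm38, Myh9 (Entrez gene 17886) spans bases 77760585 to 77842175 of chromosome 15 on the minus strand. Myh10 (Entrez gene 77579) spans bases 68691915 to 68816626 of chromosome 11 on the plus strand, and Myh14 (Entrez gene 71960) bases 44605803 to 44670872 of chromosome 7 on the minus strand. The longest protein-coding transcripts in GENCODE each have 41 exons, with coding lengths of 5880 nt for Myh9, 5928 nt for Myh10 and 6099 nt for Myh14. The longest run of bases that Myh9 and Myh10 share is 122 nt and lies in the coding sequence, starting at coding base 1381 of Myh9 and 1402 of Myh10. It is shown because a stretch of a read that lies within it matches both paralogs:
Myh9 and Myh10 shared run: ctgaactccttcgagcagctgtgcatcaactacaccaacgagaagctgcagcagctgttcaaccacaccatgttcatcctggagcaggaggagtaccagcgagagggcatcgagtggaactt
Myh9 shared a run of up to 47 nt with Myh14, and Myh10 a run of up to 49 nt with Myh14. No stretch as long as a full read of the study was common to the transcripts of any pair of the 3 genes, so a full-length read differed between them by at least 1 base. The deposited counts of Myh9 and Myh14 were whole numbers in all 28 libraries, while those of Myh10 were not whole in 11 of 28 libraries.

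The promoters are shown because the genes moved in different directions with age. Each window holds the 250 nt before an annotated RefSeq start (GRCm38.p6), 5′ to 3′ on the gene's strand, with CCAAT boxes (CCAAT, or ATTGG on the other strand) in capitals. They lie at chr15:77842176-77842425 on the minus strand for Myh9, chr11:68691665-68691914 on the plus strand for Myh10 and chr7:44670844-44671093 on the minus strand for Myh14. The Myh14 window reaches into the gene span given above, which ends at base 44670872, while the other windows lie just outside their spans.
Myh9: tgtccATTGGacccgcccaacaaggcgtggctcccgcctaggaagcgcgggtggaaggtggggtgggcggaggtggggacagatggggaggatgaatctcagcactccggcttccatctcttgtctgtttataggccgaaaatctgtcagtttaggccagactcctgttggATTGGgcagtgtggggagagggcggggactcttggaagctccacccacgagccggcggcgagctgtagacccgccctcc
Myh10: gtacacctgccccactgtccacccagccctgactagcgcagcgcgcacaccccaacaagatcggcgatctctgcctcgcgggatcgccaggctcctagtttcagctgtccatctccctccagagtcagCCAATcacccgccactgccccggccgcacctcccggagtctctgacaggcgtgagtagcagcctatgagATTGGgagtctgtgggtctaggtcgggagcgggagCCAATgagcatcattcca
Myh14: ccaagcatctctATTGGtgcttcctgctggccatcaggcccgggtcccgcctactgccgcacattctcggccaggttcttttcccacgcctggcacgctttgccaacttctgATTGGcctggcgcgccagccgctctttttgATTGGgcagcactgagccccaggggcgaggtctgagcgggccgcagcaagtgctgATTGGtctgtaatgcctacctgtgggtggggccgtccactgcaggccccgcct
Myh9 held 2 CCAAT boxes, Myh10 held 3 and Myh14 held 4, where 33.8% of 32851 mouse promoter windows of the same length held at least 1. At least 2 were found in 10.1% of promoter windows, at least 3 in 2.79% and at least 4 in 0.84%. GC boxes (GGGCGG on either strand), which 32.7% of promoter windows held, were found 4 times for Myh9 and 0 times for Myh10 and Myh14. The letters TATAAA on either strand, which 12.4% of promoter windows held, was found 1 time for Myh9 and 0 times for the other genes. These are matches of letters and not measured binding sites.

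Total counts were 18550922 to 35047494 per library at E18.5, 25256326 to 45134998 in midbrain at P21 and 30423267 to 35643736 in cortex. The regions carried their labels' markers. Levels are given in TPM, a count per exon length scaled to the same total in every library. The summed TPM of 5 midbrain genes (Th, Slc6a3, En1, Pitx3 and Lmx1b) was 65.4 to 84.5 at E18.5 and 152 to 185 at P21, against at most 20.6 in cortex, and that of 3 cortex genes (Tbr1, Emx1 and Neurod6) was 137 to 155 in cortex and at most 20.1 in midbrain. Choroid plexus markers (Ttr, Kl, Folr1, Clic6 and Kcnj13) varied most among libraries of the same age and region, from 48.3 to 3666 TPM at E18.5 and from 14.9 to 3045 TPM in midbrain at P21. Nova1 itself was at 116 ± 10.6 TPM (SD, n = 12) at E18.5, 48.9 ± 2.69 TPM (SD, n = 8) in midbrain at P21 and 24.4 ± 0.950 TPM (SD, n = 8) in cortex. Counts per gene do not show the substituted codon, so these levels do not check the genotype labels.

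Myh10 was the most abundant of the heavy chains in every library. In E18.5 midbrain its level ran from 168 TPM through a median of 180 to 186 TPM in hu/hu mice, and from 177 through 183 to 190 TPM in wt/wt mice. At P21 it was lower, at 135, 133, 132 and 124 TPM in hu/hu midbrain and 128, 131, 120 and 132 TPM in wt/wt midbrain. It was lowest in cortex, at 102, 104, 109 and 105 TPM in hu/hu mice and 106, 108, 107 and 101 TPM in wt/wt mice. The libraries of the 3 tissues did not overlap, while those of the genotypes overlapped in each.

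Myh9 kept a similar TPM in all tissues. In E18.5 midbrain it ran from 36.1 through a median of 43.6 to 51.0 TPM in hu/hu mice and from 38.6 through 45.4 to 55.2 TPM in wt/wt mice. In P21 midbrain the values were 45.2, 45.4, 46.8 and 43.0 TPM in hu/hu mice and 46.3, 45.0, 44.0 and 47.1 TPM in wt/wt mice. In P21 cortex they were 39.0, 43.3, 37.9 and 43.8 TPM in hu/hu mice and 40.7, 45.3, 42.3 and 38.8 TPM in wt/wt mice. All P21 values lay inside the wide range of the E18.5 libraries.

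Myh14 varied most between tissues. In E18.5 midbrain the hu/hu libraries were at 5.41, 7.40, 7.11, 4.98, 7.66 and 7.34 TPM and the wt/wt libraries at 6.52, 6.62, 9.20, 7.33, 10.2 and 7.80 TPM, from 202 to 522 counts each. In P21 midbrain it was at 59.1, 66.4, 58.6 and 56.5 TPM in hu/hu mice and 64.8, 62.0, 51.1 and 62.9 TPM in wt/wt mice. In P21 cortex it was at 19.8, 24.1, 17.8 and 24.1 TPM in hu/hu mice and 21.5, 22.7, 18.6 and 21.2 TPM in wt/wt mice. Every P21 library lay above every E18.5 library, and every P21 midbrain library above every cortex library.

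**Figure D1:**
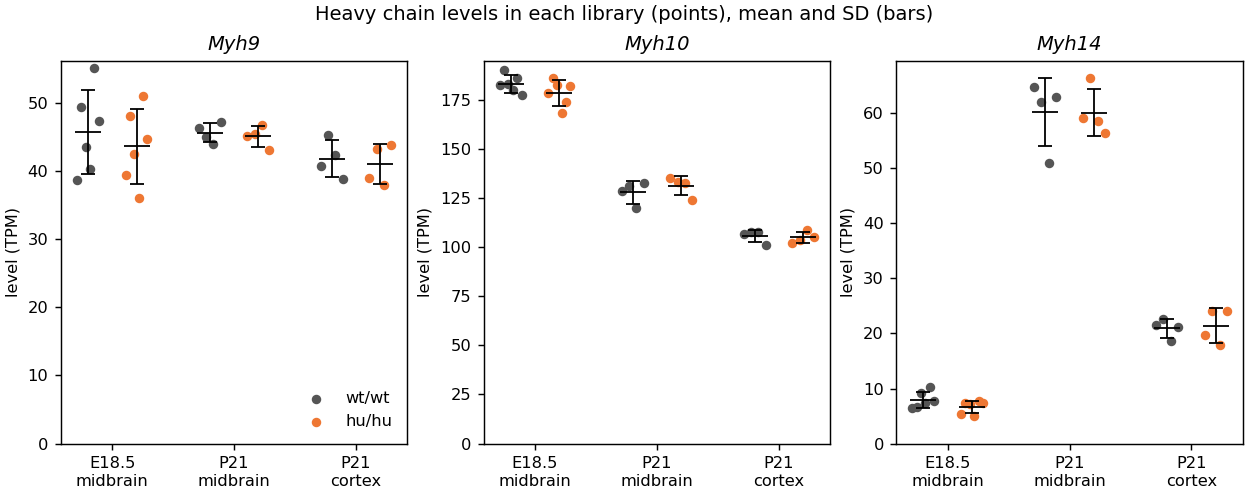
Level of each heavy chain in TPM (vertical axis, from 0) by age and region, with 1 point per library, wt/wt in grey and hu/hu in orange, and bars for the mean and SD of each group. Myh10 steps down from E18.5 midbrain to P21 midbrain to cortex, and Myh9 has means of 44.7, 45.4 and 41.4 TPM in that order. Myh14 is near 7 TPM at E18.5, near 60 TPM in P21 midbrain and near 21 TPM in cortex.

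Over both genotypes, the summed level of the heavy chains was 233 ± 10.9 TPM (SD, n = 12) in E18.5 midbrain and 235 ± 10.3 TPM (SD, n = 8) in P21 midbrain, and 168 ± 5.40 TPM (SD, n = 8) in P21 cortex. In E18.5 midbrain the order was Myh10, Myh9, Myh14, with Myh9 6.23 ± 0.832 times the level of Myh14 within a library (SD, n = 12). The same order held in cortex, where that ratio was 1.96 ± 0.167 (SD, n = 8). In P21 midbrain Myh14 stood above Myh9 in 8 of 8 libraries, with a Myh9 to Myh14 ratio of 0.757 ± 0.055 (SD, n = 8). That last step rests on the gene lengths: the deposited exon lengths are 10171 nt for Myh9, 9867 nt for Myh10 and 6419 nt for Myh14, against transcript lengths of 7433, 7791 and 6499 nt in GENCODE. The size of the ratio moved with the lengths in the other tissues too, and by counts without lengths it was 9.88 at E18.5 and 3.11 in cortex. Per transcript length the ratio of Myh9 to Myh14 in P21 midbrain was 1.05 ± 0.076 (SD, n = 8) and Myh14 stood above in 2 of 8 libraries, so Myh9 and Myh14 cannot be ordered there, while Myh10 stayed first in all 28 libraries and Myh9 stayed above Myh14 in all libraries of E18.5 midbrain and cortex.

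Within a group, Myh10 was the steadiest of the heavy chains at E18.5. Its coefficient of variation (SD over mean) was 3.65% in hu/hu and 2.51% in wt/wt mice there, where 2.71% and 0.71% of 15540 genes with a mean of at least 1 TPM varied less. Myh9 varied by 12.6% and 13.5% at E18.5, against a median of 10.9% and 10.2% over those genes, and by 3.48% and 3.06% in P21 midbrain, against 6.74% and 7.05%. Myh14 varied more than the median gene in each of the 6 groups, from 7.20% in P21 midbrain of hu/hu mice to 18.7% in E18.5 midbrain of wt/wt mice. The highest Myh9 and Myh14 levels at E18.5 were in replicate 5 of both genotypes. Those libraries were also highest among their genotype for the summed TPM of endothelial markers (217 in hu/hu and 208 in wt/wt), microglial markers (79.3 and 81.7) and astrocyte markers (447 and 469). They were highest as well for mural (181 and 171), proliferation (134 and 134) and cerebellar granule markers (44.9 and 45.8), and lowest for neuronal markers (3368 and 3446). The part of these cells in the levels was not tested.

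The first comparison asked how the heavy chains changed in midbrain between E18.5 and P21, in 12 and 8 libraries with genotype as a covariate. Myh14 rose 9.49-fold (95% interval 8.47 to 10.6), or by 3.25 on the log2 scale (standard error 0.080, Benjamini-Hochberg adjusted p = 9.57e-23 in the quasi-likelihood test of edgeR). Myh10 fell by 0.28 on the log2 scale (standard error 0.031, adjusted p = 5.66e-09 from edgeR). Myh9 rose by 0.23 on the log2 scale (standard error 0.055, adjusted p = 0.000478 from edgeR) with TMM factors, but scaled to library totals alone its log2 fold change was 0.07 and did not pass (adjusted p = 0.224 from edgeR, against 5.54e-08 to 0.0239 under the other alternatives), and its mean TPM was 44.7 at E18.5 and 45.4 at P21. Library totals moved the median over all genes from −0.02 to −0.17.

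Changes with age were the rule in these tissues: 85.6% of 16330 genes were called (p under 0.05 and adjusted p under 0.1), 42.4% as higher and 43.3% as lower at P21. Against this background the calls on Myh9 and Myh10 are common ones. Called rises of at least 2-fold made up 15.9% of the genes, and 1.84% of genes (300) had a larger log2 fold change than Myh14. The TPM of P21 and E18.5 libraries did not overlap for Myh10 and Myh14, as for 60.1% of genes, and overlapped for Myh9. The rise of Myh14 was 3.11 on the log2 scale in wt/wt mice alone and 3.40 in hu/hu mice alone. E18.5 and P21 libraries are different animals, and any difference in their preparation cannot be told apart from age. In bulk tissue, more cells that express a gene and more RNA per cell cannot be told apart.

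The next comparison set P21 midbrain against P21 cortex, with 8 libraries each. Myh14 was 2.69-fold higher in midbrain (95% interval 2.48 to 2.93), or by 1.43 on the log2 scale (standard error 0.058, adjusted p = 7.05e-17 from edgeR). Myh10 was higher by 0.22 on the log2 scale (standard error 0.028, adjusted p = 1.35e-07 from edgeR). For Myh9 the log2 fold change was 0.06 (standard error 0.034, 95% interval −0.01 to 0.13, adjusted p = 0.136 from edgeR), which did not pass. Without wt/wt cortex replicate 2, which had the highest Myh9 level in cortex, it was 0.08 and passed with an adjusted p = 0.0459 from edgeR, against 0.0830 to 0.399 under the other alternatives.

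Regional calls were also common, at 75.6% of 16345 genes, with 37.9% higher and 37.7% lower in midbrain, and 7.81% called at least 2-fold higher. A larger log2 fold change than that of Myh14 was found for 4.22% of genes. The TPM of the regions did not overlap for Myh10 and Myh14, as for 47.3% of genes, and overlapped for Myh9. This comparison and the one on age share the 8 libraries of P21 midbrain, so their values for the heavy chains are not independent of each other.

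Each gene's share of the summed TPM of the heavy chains was compared by an exact permutation test over libraries, two-sided, with Benjamini-Hochberg adjustment over the 15 share tests. From E18.5 to P21 midbrain the share of Myh14 went from 3.12% to 25.6%, a difference of 22.5 percentage points (exact p = 7.94e-06, adjusted p = 5.95e-05). The share of Myh10 went from 77.7% to 55.1% (difference −22.6 points, exact p = 7.94e-06, adjusted p = 5.95e-05). Those were the smallest p-values that 8 against 12 libraries allow. The test shuffled single libraries, although same-numbered hu/hu and wt/wt libraries of a tissue deviated together, so these p-values can be too small. The share of Myh9 was 19.1% and 19.3%, a difference of 0.18 points that did not pass (exact p = 0.783, adjusted p = 0.891). By counts without division by length the share of Myh9 was 1.89 points higher at P21 and passed (exact permutation test, adjusted p = 0.0295, against 0.2 to 1 under the other alternatives). The size of the other 2 changes moved with the lengths. By counts Myh14 went from 2.04% to 18.2% and Myh10 from 78.1% to 60.1%. By GENCODE transcript lengths they went from 2.42% to 20.8% and from 77.1% to 57.4%.

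Between P21 midbrain and cortex all 3 shares differed without overlap. Myh14 held 25.6% in midbrain and 12.6% in cortex, a difference of 13.0 points. Myh10 held 55.1% and 62.7%, a difference of −7.64 points, and Myh9 19.3% and 24.6%, a difference of −5.32 points. Each had an exact p = 0.000155, the smallest that 8 against 8 libraries allow, and an adjusted p = 0.000466. As for age, single libraries were shuffled and not same-numbered pairs, so these p-values can be too small. The lower share of Myh10 in midbrain stood beside a higher Myh10 level there (129 against 105 TPM), and that of Myh9 beside a level that did not pass between regions. By counts Myh14 held 18.2% in midbrain and 8.53% in cortex, and by GENCODE transcript lengths 20.8% and 9.93%.

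**Figure D2:**
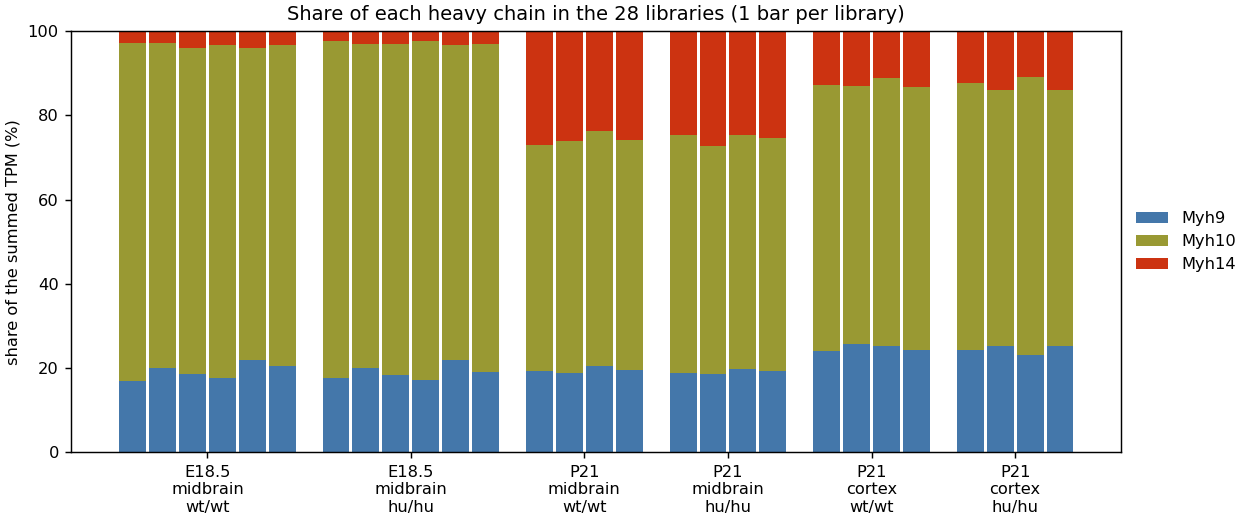
Share of Myh9 (blue), Myh10 (olive) and Myh14 (red) in their summed TPM, in percent (vertical axis), with 1 bar per library ordered by age, region and genotype. Myh14 takes 2.38% to 4.07% of the bar at E18.5, 23.8% to 27.2% in P21 midbrain and 10.8% to 14.1% in cortex, with overlapping hu/hu and wt/wt bars in each.

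Genotype was compared within each age and region, to ask whether the human form of NOVA1 went with another heavy chain level. In E18.5 midbrain the log2 fold change (hu/hu against wt/wt) of Myh14 was −0.26 (standard error 0.120, 95% interval −0.52 to −0.01), with an adjusted p = 1 from edgeR and 172 genes at a smaller p. That of Myh9 was −0.07 (standard error 0.082, 95% interval −0.25 to 0.10) and that of Myh10 −0.04 (standard error 0.044, 95% interval −0.13 to 0.05). Mean Myh14 levels were 6.65 ± 1.15 TPM (SD, n = 6) in hu/hu and 7.95 ± 1.49 TPM (SD, n = 6) in wt/wt mice, with overlapping ranges, and the hu/hu library was the lower one in 5 of 6 replicate pairs, as it was for Myh9 and Myh10. The adjusted p did not pass with the replicate number as a block either (adjusted p = 0.928 from edgeR, and 0.998 to 1 under the other alternatives). The share of Myh14 was 2.89% in hu/hu and 3.35% in wt/wt mice, a difference of −0.46 points (exact permutation test, p = 0.13, adjusted p = 0.325). The hu/hu libraries with the lowest Myh14 levels, replicates 4 and 1, had choroid plexus markers at 48.3 and 690 TPM, below the 1414 to 2774 TPM of the wt/wt libraries, while replicate 5, the highest hu/hu library for Myh14, was at 563 TPM. The part of this tissue in the result was not tested.

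At P21 no heavy chain passed the test of gene level between genotypes. The study reports differential splicing of Myh14 between the genotypes in P21 midbrain, which counts per gene do not test. In midbrain the log2 fold change was −0.01 for Myh9 (95% interval −0.10 to 0.07), 0.04 for Myh10 (−0.04 to 0.13) and 0.00 for Myh14 (−0.14 to 0.15). In cortex it was −0.02 for Myh9 (−0.14 to 0.09), −0.01 for Myh10 (−0.09 to 0.07) and 0.04 for Myh14 (−0.14 to 0.22). The intervals of Myh14 bound a change in hu/hu mice between 0.909-fold and 1.11-fold in midbrain and between 0.905-fold and 1.16-fold in cortex. The signs of these small differences changed for Myh9 and Myh14 in midbrain and for each gene in cortex when single libraries were left out, and for Myh14 in midbrain under library totals. The 9 share differences between genotypes were at most 0.74 points in size, with exact permutation p-values of 0.13 to 1 and adjusted p-values of 0.325 to 1. The share of Myh9 in P21 midbrain was lower in hu/hu mice in 4 of 4 replicate pairs, with a mean difference of −0.46 points, and with libraries paired by number the exact permutation p was 0.125, the smallest that 4 pairs allow (adjusted p = 0.278).

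The same held over all genes. With edgeR, 0 of 15540 genes (0%) were called in E18.5 midbrain, 0 of 15972 in P21 midbrain and 0 of 15767 in P21 cortex, and at an unadjusted p under 0.05 there were 201, 426 and 450 genes. Each is a smaller share of the genes tested than 0.05. These fits did not use the pairing of same-numbered libraries, and can miss differences for that reason. DESeq2 called 0, 1 and 0 genes, and edgeR with the replicate number as a block called 0, 4 and 0, none of them a heavy chain. The TPM of the genotypes did not overlap for 0.0515% of genes at E18.5, 1.92% in P21 midbrain and 2.02% in P21 cortex, and overlapped for Myh9, Myh10 and Myh14 in all 3 comparisons.

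**Figure D3:**
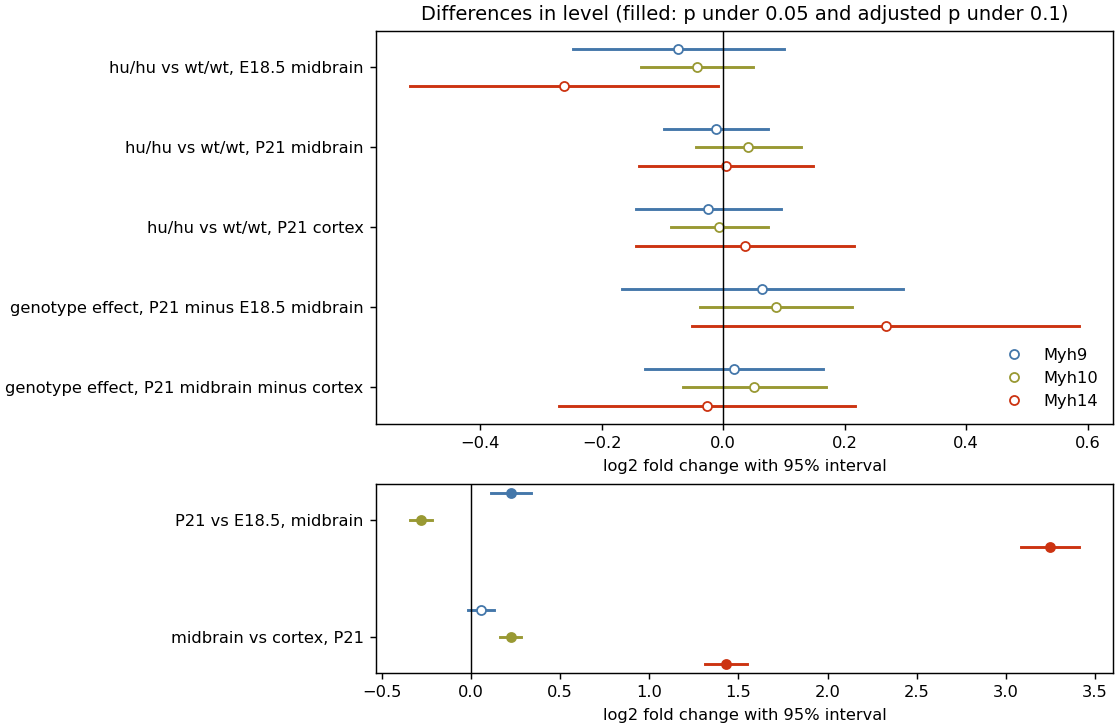
Log2 fold changes (points) with 95% intervals (lines) of Myh9 (blue), Myh10 (olive) and Myh14 (red) from edgeR, with filled points for those that passed p under 0.05 and adjusted p under 0.1. The upper panel holds the genotype comparisons and their differences and the lower panel, on a wider axis, age and region. Only points of the lower panel are filled, with Myh14 at 3.25 for age and 1.43 for region.

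Whether the genotype difference itself changed with age or region was tested as an interaction. For Myh14 the genotype effect in P21 midbrain exceeded that at E18.5 by 0.27 on the log2 scale (standard error 0.154, 95% interval −0.05 to 0.59), with an adjusted p = 1 from edgeR. It was 0.06 (standard error 0.112) for Myh9 and 0.09 (standard error 0.061) for Myh10. Between P21 midbrain and cortex the differences were 0.02, 0.05 and −0.03 for Myh9, Myh10 and Myh14, with standard errors of 0.070, 0.057 and 0.117. Of all genes, 0 of 16330 and 0 of 16345 were called (0%) by edgeR and 0 by DESeq2, and 303 and 373 had an unadjusted p under 0.05.

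Several cell type markers moved with the tissues, and oligodendrocyte markers did so in the order of Myh14. The summed TPM of Mbp, Mog, Mag and Mobp, genes of compact myelin and its adhesion proteins, was 37.5 to 49.7 at E18.5, and at P21 it was 8840 to 9750 in midbrain and 2574 to 3015 in cortex, with 4 of 4 markers detected in every library. Astrocyte markers (Aqp4, Aldh1l1, Slc1a2, Gfap and Gja1) went from 333 to 469 TPM at E18.5 to 1207 to 1275 in P21 midbrain and 1130 to 1277 in cortex. Their member Aldh1l1 went the other way, from a mean of 192 TPM to 141 TPM in midbrain, and Gfap (12.3, 279 and 149 TPM) and Aqp4 (38.5, 138 and 46.2 TPM) had their highest means in P21 midbrain and their lowest at E18.5, as Myh14 did. Microglial markers were at 50.1 to 81.7, 204 to 223 and 280 to 330 TPM. Mural markers, a list that holds the smooth muscle heavy chain Myh11, had medians of 150, 220 and 195 TPM, also in the order of Myh14, with ranges of 127 to 181, 174 to 246 and 175 to 238 TPM. Neuronal markers (Rbfox3, Snap25, Syt1, Tubb3 and Stmn2) summed to 3368 to 3839, 3593 to 3961 and 4156 to 4500 TPM, with members that moved in opposite directions. The mean of Snap25, a synaptic gene, was 328 TPM at E18.5 and 2337 TPM in P21 midbrain, while Tubb3 and Stmn2, genes of growing neurons, were at 2211 and 773 TPM at E18.5 and at 742 and 217 TPM in P21 midbrain, lower at P21 as Myh10 was. Beside the fall of Myh10, proliferation markers (Mki67, Top2a, Cdk1, Ccnb1 and Birc5) went from 109 to 134 TPM at E18.5 to 4.75 to 8.76 in P21 midbrain. In cortex, where Myh10 was lowest, they were at 6.92 to 10.5 TPM. Endothelial markers (Cldn5, Pecam1, Flt1, Cdh5 and Kdr) went from 157 to 217 to 114 to 130 TPM and meningeal fibroblast markers from 344 to 532 to 119 to 159 TPM between the same midbrain libraries, in which Myh9 held its TPM. The part of these cells in the heavy chain levels was not tested.

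**Figure D4:**
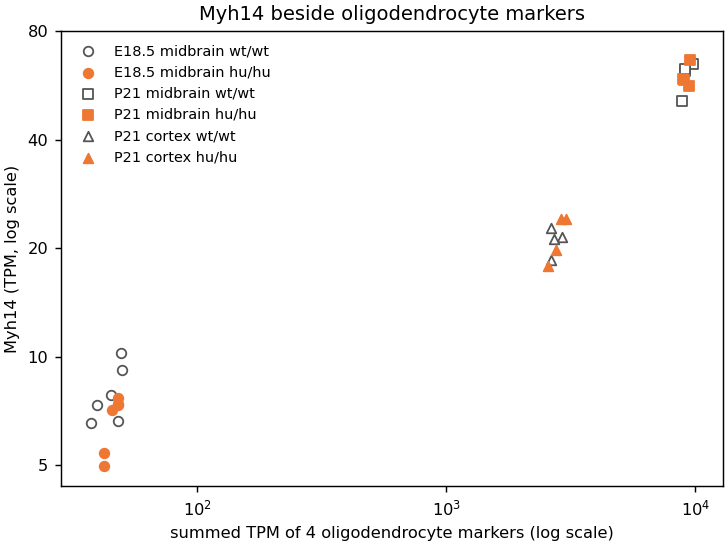
Myh14 level in TPM against the summed TPM of 4 oligodendrocyte markers, both on log scales, with 1 point per library (circles E18.5 midbrain, squares P21 midbrain, triangles P21 cortex, open wt/wt and filled hu/hu). The libraries form 3 groups in the same order on both axes, E18.5 midbrain lowest and P21 midbrain highest.

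The genes whose patterns over the 28 libraries were most like those of the heavy chains were found by the root mean square difference of centred log2(TPM + 0.1) values among 15540 genes. For Myh14 they included Arhgef10, a guanine nucleotide exchange factor (0.17), Nacc2 (0.18), the unconventional myosin Myo1d (0.18) and Nkx6-2, a transcription factor of oligodendrocytes (0.19). Nkx6-2 had a mean of 6.35 TPM at E18.5, and of 51.9 TPM in midbrain and 18.8 TPM in cortex at P21, beside 7.30, 60.2 and 21.2 TPM for Myh14. For Myh10 they were the translation factor Eif4g1 (0.06), the neuronal adaptor subunit Ap3b2 (0.06), Mycbp2 (0.06), Tsc1 (0.07) and Txnrd1 (0.07). For Myh9 they were Rasa3 (0.09), the sterol regulators Srebf2 (0.10) and Scap (0.10), Fchsd1 (0.10) and Arhgef18 (0.10). The 28 libraries share their 3 tissues and their scaling.

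Partners of the heavy chains were described from fixed lists, with 42.4% of all genes called higher and 43.3% called lower at P21 as the background, and a median log2 fold change of −0.02 over all genes. Of 5 light chains, 4 rose and 1 fell from E18.5 to P21 midbrain (median log2 fold change 0.36). The regulatory light chain Myl12b rose most, by 0.60 on the log2 scale (standard error 0.038), from 436 to 576 TPM, and the essential light chain Myl6b fell by 0.20 (standard error 0.057, adjusted p = 0.00268 from edgeR). Of 10 kinases and small GTPases that act on the regulatory light chain, 7 rose and 2 fell (median 0.25). Cit, the gene of citron kinase, rose by 2.45 (standard error 0.073), from 33.6 to 160 TPM, while the kinase Rock1 fell by 0.27 (standard error 0.048). Counts per gene do not tell the transcripts of Cit apart. Of 4 subunits of myosin phosphatase, which turns the motor off, 2 rose and 1 fell (median 0.16), with the targeting subunits Ppp1r12c up by 0.77 (standard error 0.061) and Ppp1r12a down by 0.27 (standard error 0.038).

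Of 11 genes of the actin filament and its binding partners, 2 rose and 8 fell with age (median −0.52), the fall being largest for the crosslinker Flna, by 1.90 on the log2 scale (standard error 0.085), and the rise largest for tropomyosin Tpm2, by 1.90 (standard error 0.112). Of 9 scaffolds and cytokinesis partners, 4 rose and 5 fell (median −0.34). Anln rose by 3.22 (standard error 0.061), from 7.83 to 63.4 TPM, and Ect2, an exchange factor that acts at the division plane, fell by 3.21 (standard error 0.097), from 13.2 to 1.24 TPM. Anln, anillin, is known both as a scaffold of the contractile ring and as a gene of myelinating oligodendrocytes. Under library totals the counts that rose and fell were 3 and 1 for the light chains, 5 and 3 for the kinases and GTPases, 2 and 2 for the phosphatase, 2 and 9 for actin and its partners, and 4 and 5 for the scaffolds, and the values of Dapk3 and Actn4 changed sign.

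Between P21 midbrain and cortex, with a background of 37.9% higher and 37.7% lower and a median of 0.00 over all genes, 1 light chain was higher (Myl6b, by 0.64 with a standard error of 0.057) and 3 were lower in midbrain, Myl6 most, at −0.28 on the log2 scale (standard error 0.034). Among the kinases and GTPases 6 were higher and 3 lower, with Cit at 0.835 (standard error 0.033) and Rock2 at −0.61 (standard error 0.031). Of the phosphatase subunits 0 were higher and 3 lower, Ppp1r12a at −0.73 (standard error 0.029). Of the actin genes 4 were higher and 7 lower, between Tpm2 at 0.54 (standard error 0.094) and the crosslinker Actn1 at −1.58 (standard error 0.031). The scaffolds had 5 higher and 2 lower, between Anln at 2.23 (standard error 0.052) and S100a4, a calcium-binding protein that binds the IIA tail, at −0.63 (standard error 0.169, adjusted p = 0.00175 from edgeR). The medians of the 5 lists in this comparison were −0.18, 0.17, −0.42, −0.49 and 0.23. Under library totals the counts higher and lower were 1 and 2 for the light chains and 5 and 1 for the scaffolds. Between genotypes 0 genes of the 5 lists were called in any of the 3 comparisons, with 8 of the 9 scaffolds tested at E18.5.

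**Figure D5:**
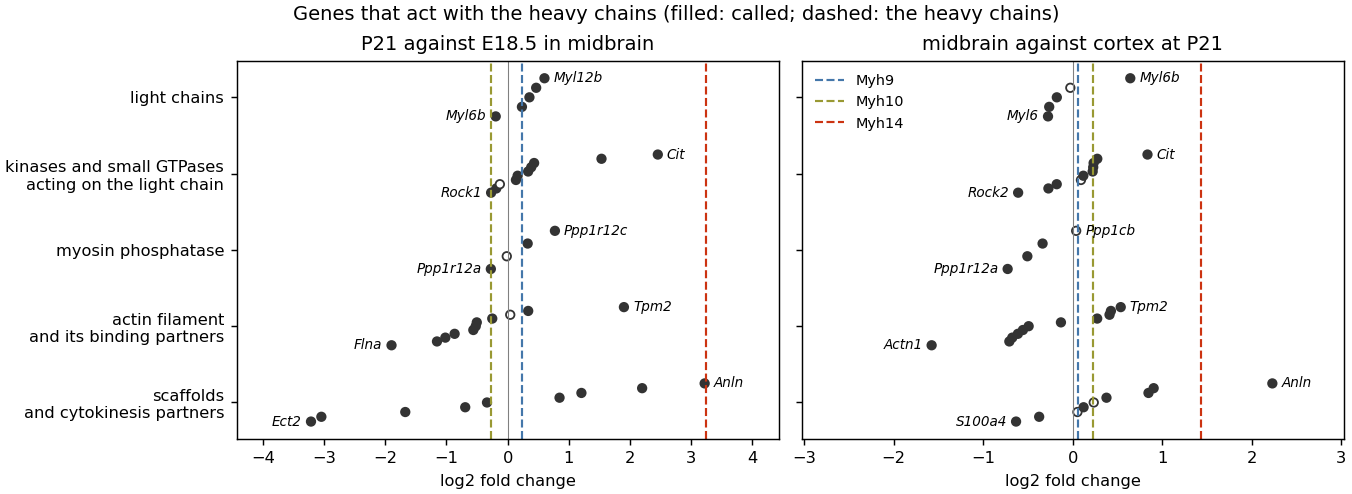
Log2 fold changes (horizontal axis) of genes that act with the heavy chains, 1 point per gene in rows by list, filled where called, for P21 against E18.5 midbrain (left) and P21 midbrain against cortex (right). Dashed lines mark Myh9 (blue), Myh10 (olive) and Myh14 (red), and the genes at either end of each row are named. Anln lies near the line of Myh14 on the left, at 3.22, and beyond it on the right, at 2.23.

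The other members of the class II family each had a lower mean level than any of Myh9, Myh10 and Myh14 in every tissue. Together the 11 summed to 11.2 to 19 TPM at E18.5, 26.5 to 31.5 TPM in P21 midbrain and 26.2 to 34.9 TPM in cortex. Those sums lay above Myh14 alone at E18.5 and in cortex (means of 7.30 and 21.2 TPM) and below it in P21 midbrain (60.2 TPM). Of 11 other heavy chain genes, 7 reached a mean of 1 TPM in at least 1 group. The highest tissue mean among them was 10.98 ± 0.908 TPM (SD, n = 8), for the cardiac and slow muscle gene Myh7 in P21 cortex. Myh7 was at 6.16 ± 0.702 TPM (SD, n = 8) in P21 midbrain and 3.12 ± 0.345 TPM (SD, n = 12) at E18.5, below Myh7b in both. Myh7b was at 3.37, 8.98 and 6.64 TPM and the smooth muscle gene Myh11 at 1.55, 8.33 and 5.48 TPM at E18.5 and in midbrain and cortex at P21. In the same order, the cardiac gene Myh6 was at 1.38, 3.36 and 1.80 TPM and Myh15 at 0.44, 0.92 and 0.76 TPM. The developmental genes Myh3 and Myh8 were at 2.49 TPM in cortex and 1.46 TPM in E18.5 midbrain, and below 1 TPM on average in the other tissues. In P21 midbrain, where the sum over Myh9, Myh10 and Myh14 was 235 TPM, the highest mean among the 11 was the 8.98 TPM of Myh7b. Of the 11, 5 rose and 4 fell with age in midbrain (5 and 5 under library totals), and 3 were higher and 6 lower in P21 midbrain than in cortex, where 85.6% and 75.6% of all genes were called.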

How the data were processed

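RNA was measured in 28 libraries, grouped by age, region and genotype from the titles in the labels, as paired-end polyA reads that the authors aligned to mm10 (GRCm38) with OLego and counted per gene with Quantas. The annotation and strand setting are not given in the sources used here, so overlapping genes cannot be told apart. For each of 23038 genes the authors deposited expected counts with the exon length, and RPKM values. The deposited RPKM values follow from counts, lengths and totals (largest relative difference 2.27e-13). From 751 to 2715 counts per library were not whole and were rounded for the tests.

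TPM was computed from the exon lengths and the counts before rounding. Differences were tested with edgeR 4.0.16 (quasi-likelihood, TMM factors, filterByExpr) in R 4.3.3, with DESeq2 1.42.0 as an alternative, and the fits were first checked on simulated data. Called genes had p under 0.05 and an adjusted p under 0.1, as in the study. The exact permutation tests of shares counted an adjusted p under 0.05 as passed. All tests were two-sided. Standard errors are the size of the log2 fold change over the square root of F.

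Libraries of hu/hu and wt/wt mice with the same number deviated together from their group means (correlations of 0.256 to 0.499 at E18.5, and 0.266 to 0.300 in midbrain and 0.252 to 0.310 in cortex at P21, with medians for other numbers −0.096, −0.125 and −0.167), so the numbers pair the genotypes, and the pairing comes from this check. Same-numbered P21 midbrain and cortex libraries did not (−0.257 to −0.128), nor did all E18.5 and P21 midbrain libraries (−0.081 to 0.116). No library was a copy of another (chi-square per degree of freedom at least 4.63 over 54 pairs). What replicates are beyond separate mice is not stated. The tests of age and region took same-numbered libraries of the genotypes as separate units, so their p-values can be too small. All p-values measure the spread between these libraries. Counting error was not separated from it.

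The genes, gene lists and markers were chosen with earlier results of these data known. Named are the heavy chains, the 5 genes nearest in pattern to each, per list the called gene with the largest rise and the largest fall, the other class II heavy chains with a mean of at least 1 TPM in a group, and Nova1. Some genes that this rule or the lists would name are not reported here and were left out of the list counts and marker sums. Mural, erythroid (3 of 5 symbols found) and cerebellar granule markers were also summed, at 127 to 246, 404 to 1111 and 4.87 to 45.8 TPM over all libraries. Alternatives were RLE factors, library totals, DESeq2, the replicate block, a stricter adjusted p (0.05), no filter, a filter of 10 counts in each library, each genotype alone, each library left out, shares of counts, the log2 share ratio, RPKM and medians. GENCODE transcript lengths were added after seeing the data. RefSeq tables for GRCm38, which gave the promoters, matched 22959 of the 23038 identifiers, and GENCODE gave the transcripts.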

Additional observations from a re-analysis of the deposited data

How the results depend on the processing

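The replicate number entered as a block left every call on the heavy chains where it was, shares included, and moved the genes called in P21 midbrain from 0 to 4; DESeq2 moved that count to 1. Outside the fits that leave out a library, 156 alternative fold changes of the heavy chains kept their direction and side of the threshold, 2 turned and 1 was lost. Under library totals Myh9 between ages was 0.0717 and not called, Myh14 between genotypes in P21 midbrain was −0.0195, and the interaction of Myh9 between regions was −0.0015.

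Myh10 share in P21 cortex by genotype turned from −0.0026 points to 0.0736 by counts and 0.0561 by transcript lengths, and its log2 share ratio was 0.0014. The share of Myh9 with age was 1.89 points by counts. In wt/wt or hu/hu libraries alone, which cannot reach the threshold with 4 against 4, the regional share differences were −5.25 and −5.38 (Myh9), −8.01 and −7.27 (Myh10), and 13.3 and 12.7 points (Myh14). Myh9 over Myh14 by transcript length was 1.05 in P21 midbrain.

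With each library left out, genotype fold changes in P21 midbrain ran from −0.0336 to 0.014 (Myh9) and −0.0641 to 0.0377 (Myh14), and in P21 cortex from −0.0635 to 0.0146 (Myh9), −0.0334 to 0.0099 (Myh10) and −0.0255 to 0.114 (Myh14). Regional Myh9 ran from 0.0389 to 0.0754, passing without wt/wt cortex replicate 2 alone, and the regional interactions from −0.0215 to 0.0566 (Myh9) and −0.104 to 0.0332 (Myh14). Genotype share differences ran from −0.82 to 0.31 points for Myh9 at E18.5, −0.92 to 0.17 for Myh14 in P21 midbrain, and −0.61 to 0.16, −1.14 to 0.70 and −0.15 to 0.98 for Myh9, Myh10 and Myh14 in P21 cortex. Myh9 with age ran from −0.019 to 0.433 points. The causes were not tested.

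In RPKM, mean Myh9 levels in hu/hu and wt/wt mice were 13.7 and 14.2 at E18.5, and at P21 were 14.5 and 14.8 in midbrain and 13.8 and 14.1 in cortex. Myh10 was at 56.0 and 56.8, 42.0 and 41.5, and 35.2 and 35.6, and Myh14 at 2.08 and 2.46, 19.3 and 19.6, and 7.21 and 7.08.

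The lowest counts of a heavy chain were those of Myh14 at E18.5, with 202 to 522 a library. Counting error and the spread between libraries were not separated.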
